A study of Homo sapiens with 18 samples.

Results

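The response of libraries labelled AMO1 to a high dose of a CDK7 inhibitor was subtracted from that of libraries labelled XG1, gene by gene. Libraries labelled XG1 and libraries labelled AMO1 had been kept for 24 h in DMSO, the solvent, or in 1000 nM YKL-5-124, with 3 libraries in each of the 4 groups. These 12 of the 18 libraries of the series carry the comparison, and the other 6 were of cells given 100 nM. No genetic change was made in either line, all cells grew in RPMI medium with fetal bovine serum, and the series title describes the lines as resistant multiple myeloma. For each gene the difference was the change in the XG1-labelled libraries minus the change in AMO1, on log2(FPKM + 1). FPKM scales reads to gene length and library size, and 1 is added so that very low values do not dominate, which understates changes of low genes. A positive difference therefore means that the gene ended higher in the XG1-labelled libraries than the AMO1 response would give. All 12792 genes with at least 1 FPKM in at least 3 libraries were tested in 1 fit (limma), and a gene was called when the Benjamini-Hochberg adjusted p was under 0.05. Unless stated otherwise, values are on the deposited scale, which appears to be set to the spike-in RNA. The relative scale divides each library by a median-ratio size factor, so that a change is read against the median gene.

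CDK7 is a kinase with a pair of roles. With cyclin H (CCNH) and MAT1 (MNAT1) it activates the kinases that drive the cell cycle, CDK1 and CDK2 among them, and within the general transcription factor TFIIH it phosphorylates the tail of RNA polymerase II as transcription begins. YKL-5-124 binds CDK7 covalently. Genes of DNA synthesis are driven in cycling cells by E2F factors, which are released when cyclin-dependent kinases phosphorylate the RB protein.

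Plasma cell markers were low, and erythroid genes high, in the libraries labelled XG1. In DMSO the summed level of 36 plasma cell genes was 699 to 810 FPKM in the XG1-labelled libraries and 13561 to 15030 FPKM in AMO1, and 20 and 33 of the 36 genes reached a mean of 2 FPKM. SDC1, the plasma cell surface proteoglycan CD138, was at 24.2 ± 12.4 FPKM (SD, n = 3) in XG1-labelled DMSO libraries and at 5067 ± 325 in AMO1. TNFRSF17, the BCMA receptor, was at 1.15 ± 1.03 and 443 ± 44.2 FPKM. Of 38 erythroid genes the summed level was 6167 to 6775 FPKM in the XG1-labelled libraries and 537 to 633 in AMO1, with the fetal globin gene HBG1 at 1448 ± 113 and 0.94 ± 0.42 FPKM. The name XG1 is therefore used below for libraries that carry that label, and any statement about a line holds for the cells in those libraries. In AMO1 the 1000 nM replicate 2 stood apart, with 431965 FPKM summed over genes against 686266 and 683618 in its partners, and results are given without it where it matters. Replicates are numbered in the labels with no word on separate cultures, and p-values therefore cover only the spread between these libraries, which may be technical.

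Summed expression was lower after treatment in both lines. The XG1 totals were 1298798, 1221590 and 1425717 FPKM in DMSO and 1036930, 953443 and 902520 at 1000 nM, a mean of 73.3% of DMSO. The AMO1 totals were 1442943, 1548381 and 1553906 FPKM in DMSO, and at 1000 nM their mean was 39.6% of DMSO. In neither line did the DMSO and 1000 nM totals overlap. The mean log2 totals changed by −0.45 and −1.37, a difference of 0.92. Permuting treatment labels within a line does not test whether 2 responses are equal, so no p is given and the difference between the lines was not tested. Without AMO1 1000 nM replicate 2 it was 0.70. Fewer cells, less RNA per cell and differences in the amount of spike-in or RNA loaded cannot be told apart in such totals.

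Most of the gene-by-gene difference was a fall in AMO1 that was absent or smaller in XG1. On the deposited scale 4198 genes (32.8% of those tested) responded higher in XG1 and 192 (1.5%) lower. The median tested gene changed by −0.12 in XG1 and by −0.61 in AMO1, and the median difference was 0.55. In XG1, 596 genes (4.66%) rose and 1772 (13.9%) fell, whereas in AMO1 234 (1.83%) rose and 6774 (53%) fell. Without AMO1 1000 nM replicate 2 the difference was called for 3264 genes higher and 203 lower.

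Of the 7871 genes with a mean of at least 2 FPKM in both lines, 3692 (46.9%) responded higher in XG1 and 23 lower, with a median difference of 0.75. Among those 3692, 2709 fell in AMO1 with no call in XG1, 679 fell in both lines, 133 rose in XG1 with no call in AMO1, and 85 rose in XG1 and fell in AMO1. A further 81 had no call in either line and 5 rose in both. Among the 23 genes lower in XG1, 10 rose in AMO1 only, 8 fell in XG1 only, 2 fell in both and 3 had no call in either line.

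Relative to the median gene the split was closer to even. On that scale 1286 genes (10.1%) responded higher in XG1 and 871 (6.81%) lower, and the median difference was −0.00. That split depended on the scaling. Upper-quartile scaling gave 944 higher and 1152 lower with a median difference of −0.11, and subtracting each line's median response gave 1009 and 594 with a median difference of 0.06. On the relative scale 1576 genes (12.3%) rose and 1602 (12.5%) fell in XG1, and 2427 (19%) rose and 2532 (19.8%) fell in AMO1. Among the 7871 genes measured in both lines, 1064 (13.5%) responded higher in XG1 on that scale and 402 (5.11%) lower, with a median difference of 0.09. Among 1995 genes under a mean of 2 FPKM in each line, 32 were higher and 162 lower.

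**Figure D1:**
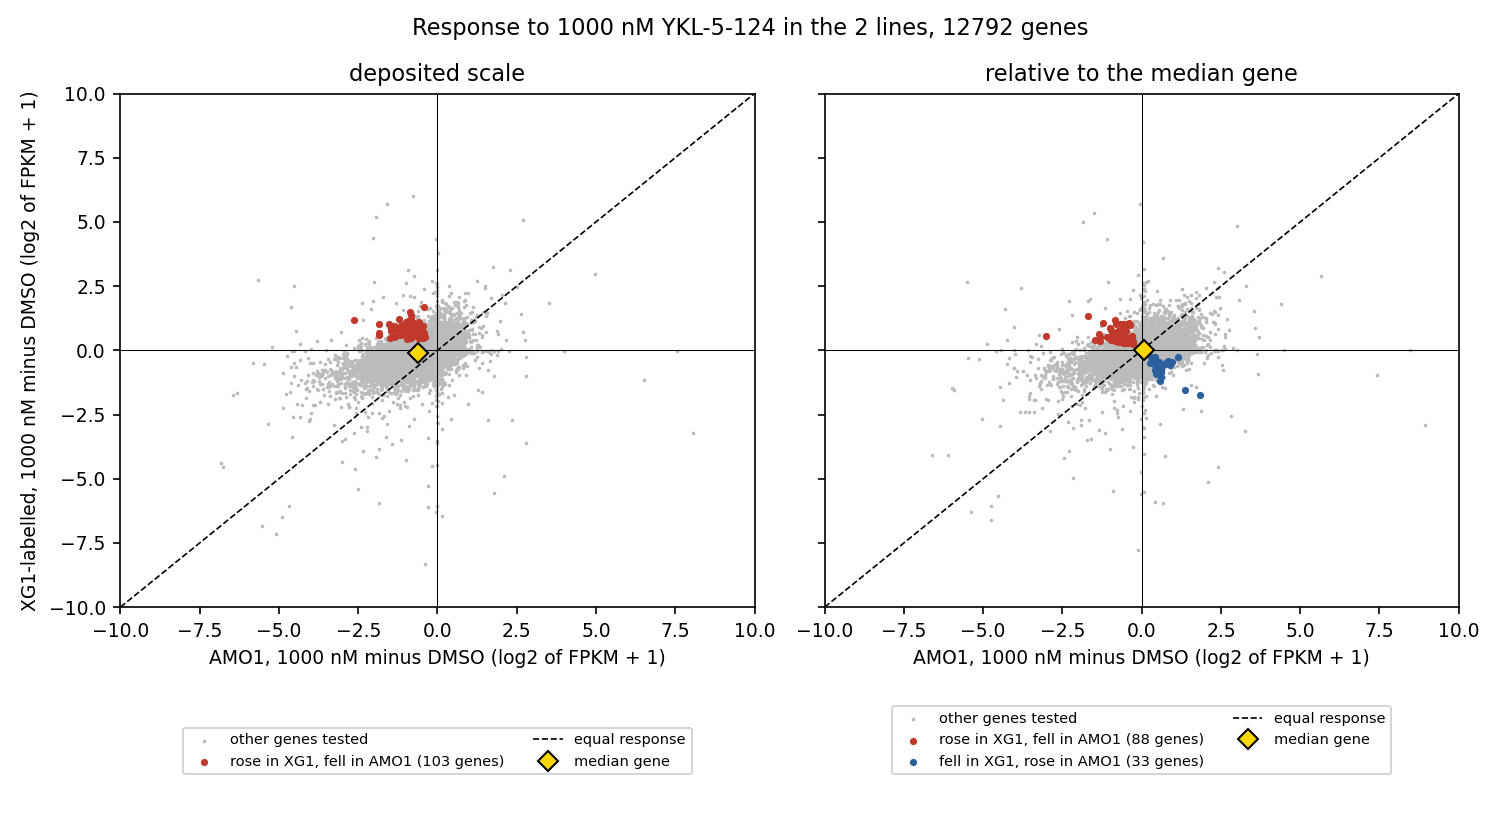
Change of each of 12792 tested genes at 1000 nM minus DMSO (log2 of FPKM + 1) in AMO1 on the horizontal axis and in XG1-labelled libraries on the vertical axis, on the deposited scale (left) and relative to the median gene (right). Colours mark genes called in opposite directions, 103 on the deposited scale and 88 and 33 on the relative scale. The median gene (diamond) lies at −0.61 in AMO1 and −0.12 in XG1 on the left and near 0 in both on the right.

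Genes of DNA synthesis, mitosis and amino acid stress were among those that separated the lines widely, and the promoters of 3 of them are shown with that of KLF2, a gene that moved in opposite directions. The sequences are the 250 bases before the RefSeq transcription start (GRCh38.p14, gene strand, all 4 on the plus strand), and they are shown because they hold, or lack, motifs known for such gene groups. Capitals mark matches on either strand to the CCAAT box (CCAAT or ATTGG), the cell cycle homology region (TTTGAA or TTCAAA) and the amino acid response element core (TGATGNAA or TTNCATCA). The E2F core (TTTNNCGC or GCGNNAAA) was also searched and has no match in these 4 windows. RRM2 lies at chr2:10122489-10122738, CDK1 at chr10:60778081-60778330, CHAC1 at chr15:40953221-40953470 and KLF2 at chr19:16324576-16324825.
RRM2: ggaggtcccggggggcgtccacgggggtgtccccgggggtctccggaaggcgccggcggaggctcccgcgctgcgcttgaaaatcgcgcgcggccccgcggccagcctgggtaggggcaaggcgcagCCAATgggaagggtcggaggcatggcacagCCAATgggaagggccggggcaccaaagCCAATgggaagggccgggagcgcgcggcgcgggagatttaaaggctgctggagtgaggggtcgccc
CDK1: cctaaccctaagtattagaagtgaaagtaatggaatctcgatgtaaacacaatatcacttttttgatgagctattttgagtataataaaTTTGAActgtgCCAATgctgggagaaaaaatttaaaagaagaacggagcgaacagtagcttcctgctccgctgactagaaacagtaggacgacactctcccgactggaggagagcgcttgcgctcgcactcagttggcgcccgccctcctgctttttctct
CHAC1: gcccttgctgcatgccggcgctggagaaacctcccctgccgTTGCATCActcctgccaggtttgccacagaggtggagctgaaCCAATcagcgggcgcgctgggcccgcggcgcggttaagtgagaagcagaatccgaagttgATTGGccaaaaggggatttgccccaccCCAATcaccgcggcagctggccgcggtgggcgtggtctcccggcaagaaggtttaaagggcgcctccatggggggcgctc
KLF2: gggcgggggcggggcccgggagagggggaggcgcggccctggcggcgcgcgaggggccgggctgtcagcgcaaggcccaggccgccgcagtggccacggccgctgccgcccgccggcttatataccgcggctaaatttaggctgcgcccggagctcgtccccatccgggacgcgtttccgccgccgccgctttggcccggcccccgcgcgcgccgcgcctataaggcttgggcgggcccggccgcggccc
The RRM2 window holds 3 CCAAT boxes, the CDK1 window 1 cell cycle homology region and 1 CCAAT box, and the CHAC1 window 3 CCAAT boxes and 1 amino acid response element core. No capital stretch overlaps another. The windows of CTH and PSAT1, also stress response genes, were searched but are not shown. They had 1 and 3 CCAAT boxes and 0 amino acid response element cores. Promoters were matched by symbol for 9964 of the 12792 genes tested and for 35116 entries of the whole table. The E2F core was in 33.3% of 45 matched DNA replication promoters, against 9.16% of genes tested and 5.92% of the table. The cell cycle homology region was in 54.2% of 48 matched mitosis promoters, against 8.54% and 13.3%. CCAAT boxes were in 53.3% of the replication, 72.9% of the mitosis and 60.6% of 33 matched stress response promoters, against 35.7% and 32.0%. The amino acid response element core was in 15.2% of the stress response promoters, against 1.40% and 3.14%. In the 95 matched promoters of genes that rose in XG1 and fell in AMO1 on the deposited scale the shares were 9.47%, 2.11%, 37.9% and 2.11%, in the order E2F core, cell cycle homology region, CCAAT box and amino acid response core. A match describes the letters of the window and does not show that a factor binds there.

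Most DNA replication genes fell in both lines, and further in AMO1. Of 53 tested members of a DNA replication list, 48 responded higher in XG1 and 0 lower, against 32.8% and 1.5% of all genes tested. Of the 53, 50 were measured in both lines, where 46.9% of all genes responded higher. Over all genes tested, 13.9% fell in XG1 and 53% in AMO1. In XG1 39 of the 53 fell, with a median change of −0.79, and in AMO1 all 53 fell, with a median of −2.54. The median difference was 1.85, against 0.55 for all genes tested. The gap was also present relative to the median gene, where 44 of 53 responded higher in XG1 against 10.1% of all genes, with a median difference of 1.36. Under the 2 other relative scalings 38 and 39 were higher. Leaving out any 1 of the 18 libraries gave 44 to 49 higher on the deposited scale.

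RRM2, the small subunit of ribonucleotide reductase that makes the DNA precursors, was the clearest member. In XG1 it was at 49.5, 46.6 and 47.6 FPKM in DMSO and at 25.1, 25.2 and 26.0 at 1000 nM. In AMO1 it was at 186, 205 and 199 FPKM in DMSO and at 6.98, 4.87 and 5.66 at 1000 nM. The groups did not overlap in either line, and the treated AMO1 libraries ended under those of XG1 although they had started above them. The log2 change was −0.89 in XG1 and −4.86 in AMO1, a difference of 3.97 ± 0.21 (SE; limma adjusted p = 4.59e-09).

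CDC6, which loads the replicative helicase onto DNA, was at 33.5, 27.4 and 30.1 FPKM in XG1 DMSO libraries and at 21.5, 18 and 23.5 at 1000 nM. The AMO1 libraries stood at 36.5, 39.1 and 38.1 FPKM and then at 1.60, 1.45 and 1.56. The lines started close together and ended far apart, with a difference of 3.43 ± 0.23 (limma adjusted p = 1.33e-07). CHAF1A, a subunit of the chromatin assembly factor that places histones behind the fork, was not called in XG1 (26.9, 24.9 and 26.7 FPKM in DMSO, 23.1, 19.0 and 22.3 at 1000 nM). In AMO1 it went from 32.5, 36.0 and 28.6 FPKM to 2.39, 2.48 and 3.01, and the difference was 2.92 ± 0.23.

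The histone chaperone gene ASF1B showed a wider split. In XG1 it was at 71.2, 60.8 and 75.3 FPKM in DMSO and at 97.7, 78.2 and 93.2 at 1000 nM, and in AMO1 at 61.4, 71.4 and 69.4 and then 5.61, 2.02 and 4.74. The 3 treated XG1 libraries lay above their controls and the 3 treated AMO1 libraries lay far under theirs. The XG1 change of 0.37 was not called on the deposited scale (adjusted p = 0.28), while relative to the median gene it was 0.56 (adjusted p = 0.0141, limma). The difference was 4.18 ± 0.32 on the deposited scale and 3.59 on the relative scale. The opposite-direction call on the relative scale was lost without XG1 1000 nM replicate 3.

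Mitosis genes behaved like replication genes. Of 57 tested G2/M and mitosis genes, 51 responded higher in XG1 and 0 lower. Of the 57, 55 were measured in both lines, where 46.9% of all genes responded higher. In XG1 52 of the 57 fell, with a median of −1.18. In AMO1 56 fell, with a median of −2.91, so the median difference was 1.63. Relative to the median gene 42 of 57 were higher in XG1 and 0 lower, with a median difference of 1.17, and 38 and 36 were higher under the 2 other relative scalings. CDK1, the kinase that starts mitosis and is itself activated by CDK7, was at 252, 218 and 243 FPKM in XG1 DMSO libraries and at 108, 90.5 and 92.7 at 1000 nM. AMO1 libraries were at 107, 113 and 97.5 FPKM and then at 5.80, 3.69 and 5.61. Both lines fell without overlap, and the difference was 2.88 ± 0.23 (limma adjusted p = 6.35e-07).

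CCNA2, the cyclin partner of CDK2 and CDK1, differed by 2.70 ± 0.23, and TPX2, which builds the mitotic spindle, by 2.38 ± 0.21. UBE2C, the ubiquitin-conjugating enzyme of the anaphase-promoting complex, differed in level as well as response. Its AMO1 level was at 1054, 1233 and 1142 FPKM in DMSO and at 59.2, 35.1 and 63.4 at 1000 nM. In XG1 it was at 7.48, 5.78 and 2.80 FPKM and then at 2.32, 4.02 and 2.47, where the groups overlapped and no change was called (adjusted p = 0.295). Its difference was 3.82 ± 0.56 (limma adjusted p = 0.000145), read from a low XG1 level.

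Of 32 tested genes of homologous recombination and the DNA damage checkpoint, 20 responded higher in XG1 and 0 lower. Of the 32, 24 were measured in both lines, where 46.9% of all genes responded higher. The median change of the 32 was −0.58 in XG1 and −1.84 in AMO1. Scaled to the median gene, 17 were higher and 2 lower. The lower count was 0 without XG1 DMSO replicate 3, XG1 1000 nM replicate 1 or 2, AMO1 DMSO replicate 1 or 2 or AMO1 1000 nM replicate 2. It was 1 without XG1 DMSO replicate 1 or 2, XG1 1000 nM replicate 3, AMO1 DMSO replicate 3, AMO1 100 nM replicate 1 or AMO1 1000 nM replicate 1 or 3. BARD1, the partner of BRCA1, differed by 2.01 ± 0.23 and FANCI, of the Fanconi anemia pathway, by 1.95 ± 0.25.

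**Figure D2:**
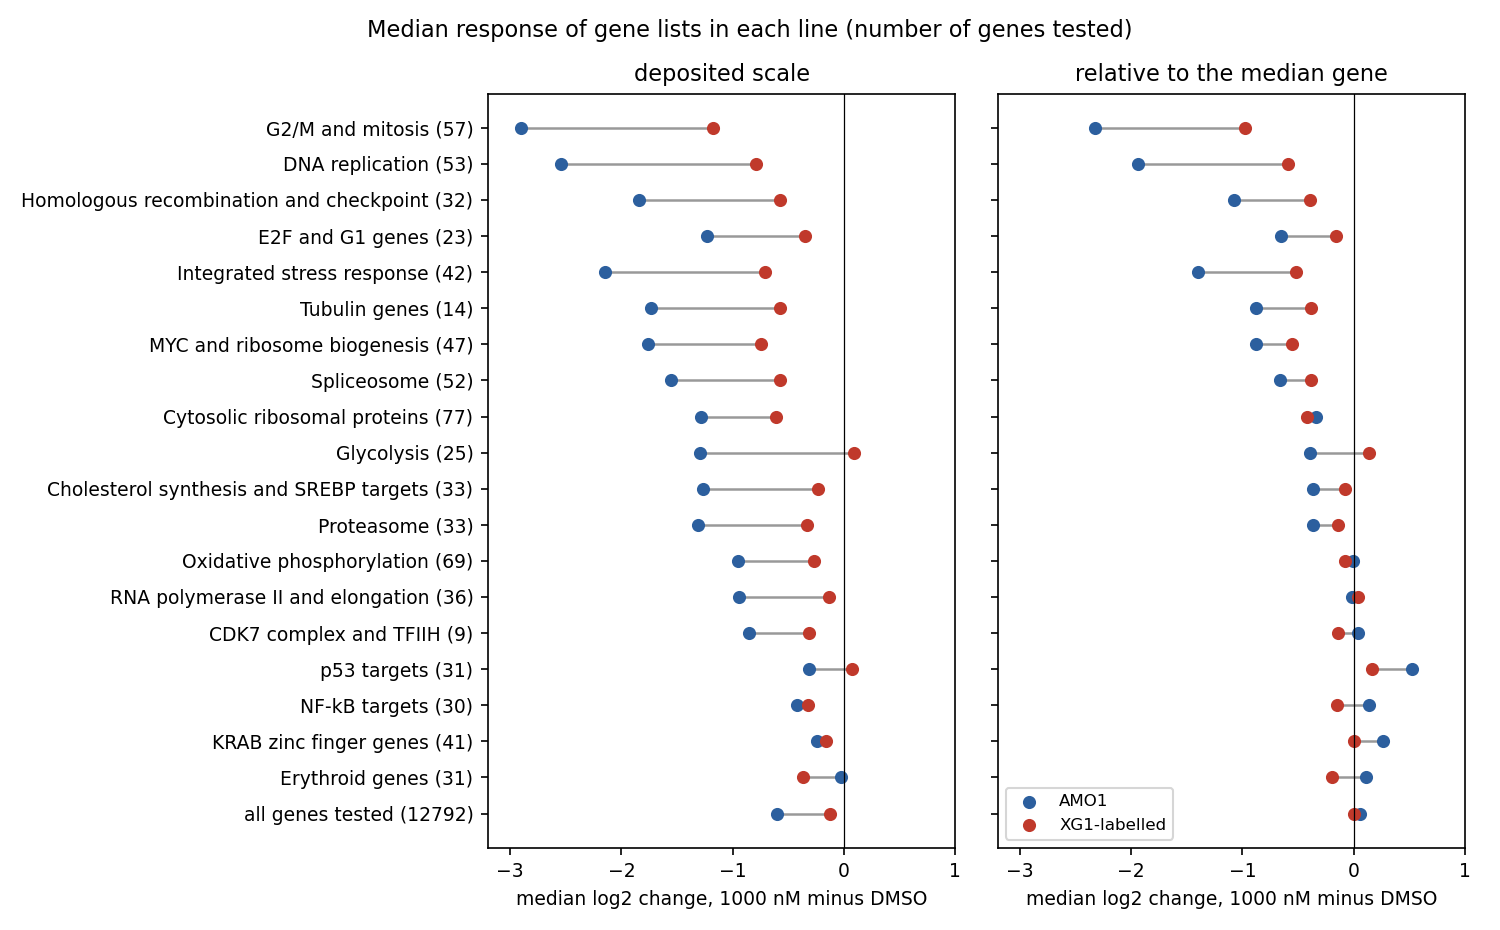
Median log2 change at 1000 nM minus DMSO over the tested members of each gene list (number in brackets), in AMO1 and in XG1-labelled libraries, on the deposited scale (left) and relative to the median gene (right). The AMO1 point lies at −2.54 for DNA replication and −2.91 for mitosis on the left, and the XG1 points at −0.79 and −1.18.

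Regulators of the G1 phase, upstream of DNA synthesis, were among the genes that separated the lines. Of 23 tested E2F and G1 genes, 16 responded higher in XG1 and 0 lower. Of the 23, 17 were measured in both lines, where 46.9% of all genes responded higher. The median difference of the 23 was 1.35. In XG1 1 rose and 5 fell, with a median of −0.35, and in AMO1 20 fell, with a median of −1.23. Against the median gene 11 were higher and 0 lower. E2F1 was at 10.9, 9.99 and 12.7 FPKM in XG1 DMSO libraries and at 7.23, 4.56 and 5.2 at 1000 nM. In AMO1 it was at 35.8, 44.1 and 34.5 FPKM and then at 1.56, 1.84 and 3.45. It fell in both lines without overlap, by 0.88 in XG1 and by 3.61 in AMO1 on the log2 scale, a difference of 2.73 ± 0.32 (limma adjusted p = 2.37e-05).

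CDK2, the S phase kinase, had a difference of 2.46 ± 0.24 and was not called in XG1 (change −0.46, adjusted p = 0.0719). CDC25A, the phosphatase that activates CDK2, had a difference of 2.65 ± 0.27, and CDCA7, an E2F and MYC target, one of 3.51 ± 0.27. CCND1, cyclin D1, differed by 1.35 ± 0.27 (limma adjusted p = 0.00158), but its difference of 0.59 relative to the median gene was not called (adjusted p = 0.0585). CCND3, cyclin D3, moved in opposite directions in the lines. It was at 121, 115 and 137 FPKM in XG1 DMSO libraries and at 205, 178 and 179.6 at 1000 nM. The AMO1 libraries stood at 51.3, 53.9 and 50.5 FPKM and then at 13.7, 12.5 and 14.6. The groups did not overlap in either line, and CCND3 rose by 0.59 in XG1 (adjusted p = 0.00396) and fell by 1.86 in AMO1 (adjusted p = 4.04e-09), a difference of 2.45 ± 0.18 (limma).

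CCNE1, cyclin E1, which pairs with CDK2 at the entry to S phase, was at 42.6, 31.4 and 32.3 FPKM in XG1 DMSO libraries and at 53.5, 47.5 and 45.1 at 1000 nM. AMO1 libraries were at 59.8, 77.4 and 66.7 FPKM and then at 11.9, 10.3 and 19.3. All treated XG1 libraries lay above the controls, with a change of 0.46 that was not called on the deposited scale (adjusted p = 0.149) and of 0.64 that was called relative to the median gene (adjusted p = 0.0071, limma). The difference was 2.71 ± 0.30 on the deposited scale and 2.0 relative to the median gene.

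The integrated stress response, which switches on ATF4 and with it amino acid synthesis and transport when translation initiation is slowed, was represented by genes most of which fell further in AMO1 than in XG1. Of 42 tested genes, 34 responded higher in XG1 and 0 lower. Of the 42, 36 were measured in both lines, where 46.9% of all genes responded higher. The median difference of the 42 was 1.62. In XG1 23 fell, with a median of −0.71, and in AMO1 39 fell, with a median of −2.15. On the relative scale 29 were higher and 0 lower, with a median difference of 0.93. Leaving out any 1 of 18 libraries gave 33 to 36 higher on the deposited scale and 22 to 30 on the relative scale.

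CTH, the enzyme that makes cysteine from cystathionine, had the largest difference on the deposited scale among the members of this list. In XG1 it was at 17.7, 14.4 and 18.2 FPKM in DMSO and at 16.9, 18.7 and 16.9 at 1000 nM, overlapping groups with no call. Its AMO1 level was at 35.7, 42.9 and 41.4 FPKM and then at 1.67, 1.48 and 1.54. The difference was 4.06 ± 0.22 (limma adjusted p = 5.33e-09) and 3.58 relative to the median gene.

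CHAC1, a glutathione-degrading enzyme induced by ATF4, fell in both lines. It was at 6.61, 10.0 and 11.6 FPKM in XG1 DMSO libraries and at 2.51, 3.56 and 3.87 at 1000 nM. In AMO1 it was at 57.9, 72.0 and 56.7 FPKM and then at 1.53, 1.62 and 1.44, and the difference was 3.38 ± 0.30 (limma adjusted p = 1.64e-06). PSAT1, an enzyme of serine synthesis, also fell in both lines, by 1.37 in XG1 and by 4.41 in AMO1, a difference of 3.04 ± 0.24. EIF4EBP1, the repressor of cap-dependent translation, went from 119.9, 101 and 128 FPKM to 9.58, 5.04 and 10.3 in AMO1 and had a change of −0.47 in XG1 that was not called, a difference of 3.23 ± 0.30.

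INHBE, an inhibin subunit gene induced under amino acid stress, had a difference of 2.94 ± 0.25. SESN2, a leucine sensor that restrains mTORC1, was at 28.9, 22.7 and 28.8 FPKM in XG1 DMSO libraries and at 31.1, 29.1 and 34.3 at 1000 nM, with no call. AMO1 libraries moved from 93.0, 110.3 and 102 FPKM to 31.2, 19.7 and 29.8, a difference of 2.14 ± 0.25. ATF4 itself, the transcription factor at the centre of the pathway, was at 184, 160.3 and 179 FPKM and then at 78.1, 79.4 and 79.6 in XG1. In AMO1 it went from 606, 645 and 601 FPKM to 119, 88.8 and 143, so both lines fell without overlap. The ATF4 difference of 1.29 ± 0.26 (limma adjusted p = 0.00162) was 0.54 relative to the median gene (adjusted p = 0.0195), and on that scale the call was lost without XG1 DMSO replicate 3, AMO1 DMSO replicate 1 or AMO1 1000 nM replicate 1.

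**Figure D3:**
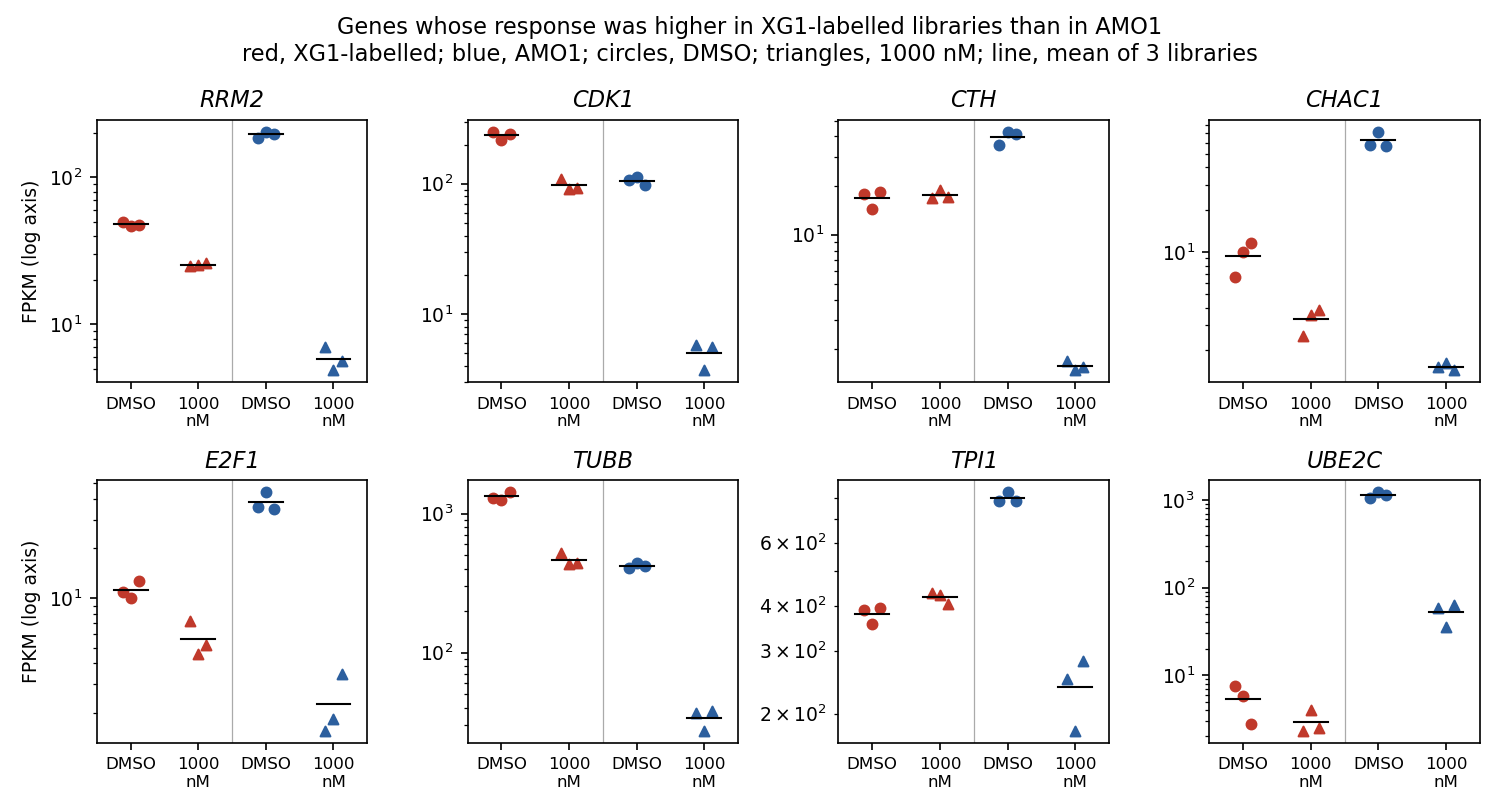
FPKM of 8 genes in each library on a log axis (XG1-labelled in red, AMO1 in blue, DMSO as circles, 1000 nM as triangles, lines at the mean of 3). RRM2 went from between 186 and 205 FPKM to between 4.87 and 6.98 in AMO1, and from between 46.6 and 49.5 to between 25.1 and 26.0 in XG1.

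Genes of growth differed between the lines on the deposited scale and much less relative to the median gene. Of 47 MYC and ribosome biogenesis genes, 33 responded higher in XG1 and 0 lower, with a median difference of 0.88. Of the 47, 45 were measured in both lines, where 46.9% of all genes responded higher. On the relative scale 9 of the 47 were higher, against 10.1% of all genes tested, with a median difference of 0.21. DKC1, the pseudouridine synthase of ribosomal RNA, was at 174, 156 and 186 FPKM in XG1 DMSO libraries and at 99.9, 88.6 and 86.4 at 1000 nM, and in AMO1 at 195, 214 and 204 and then at 51.1, 30.4 and 46.2. Of 77 cytosolic ribosomal protein genes, 35 responded higher in XG1 and 0 lower on the deposited scale, with a median difference of 0.62. Both values were near those over all genes, which were 32.8% higher, or 46.9% among genes measured in both lines, and a median of 0.55. That count was 22 without XG1 DMSO replicate 2 and 21 without AMO1 DMSO replicate 2. With the median gene as reference 0 were higher and 4 lower (13 lower under upper-quartile scaling), with a median difference of −0.13. The 4 became 2 without XG1 DMSO replicate 1 or 2, XG1 1000 nM replicate 1, AMO1 DMSO replicate 1 or 2 or AMO1 1000 nM replicate 3. RPL15, a protein of the large ribosomal subunit, had a difference of 0.91 ± 0.21 on the deposited scale and 0.16 relative to the median gene (adjusted p = 0.371, limma).

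Of 52 spliceosome genes, 46 responded higher in XG1 and 0 lower, with a median of −0.57 in XG1 and −1.55 in AMO1. Of the 52, 51 were measured in both lines, where 46.9% of all genes responded higher. Relative to the median gene 15 of the 52 were higher and 0 lower. The relative count was 8 without AMO1 DMSO replicate 1 or AMO1 1000 nM replicate 2, and 9 without XG1 DMSO replicate 3 or AMO1 DMSO replicate 3. SNRPD1, a core protein of the small nuclear ribonucleoproteins, differed by 1.49 ± 0.21 and, relative to the median gene, by 0.74 (adjusted p = 0.000136, limma). Proteasome genes were higher for 26 of 33, oxidative phosphorylation genes for 37 of 69, heat shock and folding genes for 22 of 29 and endoplasmic reticulum chaperone genes for 21 of 36. None of these 4 lists had a member called lower on the deposited scale. The oxidative phosphorylation count was 22 without XG1 DMSO replicate 2 or AMO1 DMSO replicate 2, and 23 without XG1 1000 nM replicate 1. In order, 33, 69, 27 and 35 members were measured in both lines, where 46.9% of all genes responded higher. The oxidative phosphorylation share was near that background. Relative to the median gene 4, 0, 8 and 4 members were higher, against 10.1% of all genes, and 0, 2, 0 and 2 lower.

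Among 36 genes of RNA polymerase II and elongation, 18 responded higher in XG1 and 0 lower, and 24 fell in AMO1, against 53% of all genes. Of these 36, 31 were measured in both lines, where 46.9% of all genes responded higher, so the share was near that background. Relative to the median gene 4 were higher, 2 without XG1 1000 nM replicate 1 or AMO1 1000 nM replicate 3, and 1 without XG1 DMSO replicate 3, XG1 1000 nM replicate 3, AMO1 DMSO replicate 1 or 3 or AMO1 1000 nM replicate 2. POLR2G, a polymerase subunit, was at 659, 639 and 743 FPKM in XG1 DMSO libraries and at 716, 648 and 546 at 1000 nM, overlapping groups with no call. The AMO1 libraries went from 218, 239.9 and 221 FPKM to 89.5, 70.0 and 91.1, and the difference was 1.33 ± 0.20 (limma adjusted p = 0.000182). Of 9 genes of the CDK7 complex and TFIIH, 8 were measured in both lines. On the deposited scale 2 of the 9 responded higher in XG1 and 0 lower, under the 32.8% higher of all genes tested. Relative to the median gene 1 was higher and 1 lower. In AMO1 7 fell on the deposited scale, against 53% of all genes tested, while 2 rose and 2 fell on the relative scale. GTF2H4, a TFIIH subunit, had a difference of 1.25 ± 0.24. Its relative difference was called in 10 of the 18 fits with 1 library left out.

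No difference was called for the target itself. CDK7 was at 19.1, 25.5 and 39.3 FPKM in XG1 DMSO libraries and at 19.0, 20.7 and 18.2 at 1000 nM, and in AMO1 at 15.4, 16.2 and 19.0 and then at 8.05, 6.33 and 6.2. The XG1 groups overlapped and the AMO1 groups did not, and the difference was 0.73 ± 0.37 (limma adjusted p = 0.135). CCNH had a difference of 0.79 ± 0.38 (adjusted p = 0.113) and MNAT1 one of 0.78 ± 0.47 (adjusted p = 0.206, limma). MYC, the growth-promoting transcription factor, was at 125, 96.8 and 125 FPKM in XG1 DMSO libraries and at 91.8, 68.5 and 52.2 at 1000 nM. The AMO1 libraries stood at 75.0, 82.5 and 88.9 FPKM and then at 25.6, 6.30 and 16.6, and the difference was 1.74 ± 0.54 (limma adjusted p = 0.0213). The MYC call was lost without XG1 DMSO replicate 2, XG1 1000 nM replicate 1 or AMO1 1000 nM replicate 2, and relative to the median gene its difference of 1.04 was not called (adjusted p = 0.195, limma).

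Of the survival and resistance genes looked at in every comparison, 3 had no called difference on the deposited scale. MCL1, an antiapoptotic BCL2 family member, was at 159, 155 and 149.6 FPKM in XG1 DMSO libraries and at 181, 158 and 137 at 1000 nM, and in AMO1 at 895, 969 and 958 and then at 977, 574 and 918. The groups overlapped in both lines, and the difference was 0.26 ± 0.24 (limma adjusted p = 0.428). CDKN1A, the p21 inhibitor of cyclin-dependent kinases, had a difference of 0.39 ± 0.37 (adjusted p = 0.441) and the drug efflux pump gene ABCB1 one of 0.25 ± 0.21 (adjusted p = 0.372, limma). Relative to the median gene the 3 differences were negative with any 1 of the 18 libraries left out. They lay at −0.59 to −0.42 for MCL1, −0.61 to −0.28 for CDKN1A and −0.51 to −0.30 for ABCB1. Only that of MCL1 was called, in 3 of these 18 fits. A p above the threshold does not show that these genes responded alike.

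Most glycolysis genes fell in AMO1 and were not called in XG1. Of 25 tested, 20 responded higher in XG1 and 0 lower. Of the 25, 23 were measured in both lines, where 46.9% of all genes responded higher. The median difference of the 25 was 1.39. In XG1 1 rose and 4 fell, with a median of 0.09. In AMO1 23 fell, against 53% of all genes tested, with a median of −1.30. Relative to the median gene 15 were higher and 0 lower, with a median difference of 0.64. TPI1, triosephosphate isomerase, was at 390.1, 356 and 393 FPKM in XG1 DMSO libraries and at 435, 428 and 405 at 1000 nM. AMO1 libraries moved from 783, 831 and 783 FPKM to 249.9, 179 and 281, and the difference was 1.93 ± 0.21 (limma adjusted p = 1.01e-05). All 3 treated XG1 libraries were above their controls, a change of 0.16 that was not called on the deposited scale and of 0.35 that was called on the relative scale (adjusted p = 0.00242). PFKP, the platelet form of phosphofructokinase, differed by 2.09 ± 0.24, and ENO1, enolase, by 1.55 ± 0.20.

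Of 33 cholesterol synthesis and SREBP target genes, 21 responded higher in XG1 and 1 lower on the deposited scale. Of the 33, 28 were measured in both lines, where 46.9% of all genes responded higher. Against the median gene 9 were higher, and 5 without XG1 DMSO replicate 3, XG1 1000 nM replicate 3, AMO1 DMSO replicate 1 or AMO1 1000 nM replicate 1.

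Of 14 tubulin genes, 13 fell in AMO1 and 7 in XG1. Their responses were higher in XG1 for 12 on the deposited scale and for 10 on the relative scale. Of the 14, 13 were measured in both lines, where 46.9% and 13.5% of all genes responded higher on these scales. TUBB, a main beta tubulin, fell in both lines. It was at 1302, 1249.6 and 1429.9 FPKM in XG1 DMSO libraries and at 523, 434 and 439.7 at 1000 nM. The AMO1 libraries went from 404, 441 and 417 FPKM to 36.6, 27.4 and 38.3, and the difference was 2.09 ± 0.20 (limma adjusted p = 3.99e-06). TUBB3, the beta tubulin best known from neurons, went the other way in XG1, from 4.08, 5.45 and 5.65 FPKM to 11.8, 13.8 and 13.7. In AMO1 TUBB3 fell from 12.5, 13.0 and 12.7 FPKM to 4.78, 3.58 and 6.93, and the difference was 2.43 ± 0.28 (limma adjusted p = 1.74e-05). The AMO1 change of TUBB3 on the relative scale was −0.39 and was not called (adjusted p = 0.0765), while the difference was called. Tubulin, histone and globin genes have near-identical copies, so reads may have been split between them.

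Of 27 histone genes, 7 responded higher in XG1 and 0 lower, a share under the 32.8% of all genes, and they did not all move one way. HIST1H4C, a replication-dependent histone H4 gene, fell in both lines, in XG1 from 3928, 3906 and 3989.7 FPKM to 532, 835 and 643, and in AMO1 from 2123, 2040.3 and 2437 to 138, 69.3 and 128. HIST1H2BK, an H2B gene, rose in both lines, in XG1 from 441, 422 and 454 FPKM to 2027, 1559 and 1579. AMO1 libraries moved from 67.2, 80.8 and 69.8 FPKM to 179, 86.9 and 153, and the difference was 1.08 (limma adjusted p = 0.00924). The HIST1H2BK difference relative to the median gene was 0.33 and was not called (adjusted p = 0.277, limma).

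On the deposited scale 103 genes (0.805% of those tested) rose in XG1 and fell in AMO1, and 0 genes (0%) did the reverse. Of all genes tested 4.66% rose in XG1 and 53% fell in AMO1, while 13.9% fell in XG1 and only 1.83% rose in AMO1. Whether opposite calls were more or fewer than these shares alone would give was not tested. Of the 103, 100 were protein-coding and 85 had a mean of at least 2 FPKM in both lines. With the median gene as reference 88 genes (0.688%) rose in XG1 and fell in AMO1, and 33 (0.258%) fell in XG1 and rose in AMO1. This split moved with the scaling, to 60 and 53 under upper-quartile scaling and to 23 and 91 when each line's median response was subtracted. The deposited and relative sets that rose in XG1 and fell in AMO1 shared 17 genes, 16.5% of the first and 19.3% of the second.

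Genes called opposite under all 4 scalings, an overlap added after the data were seen, were CCND3, FSCN1, GIT1, KLF2, LPAR2, OGG1, PLIN2, PXN, SLC20A1 and TRNP1, all higher in XG1 and lower in AMO1. KLF2, a transcription factor of lymphocyte quiescence, was at 4.63, 8.34 and 8.68 FPKM in XG1 DMSO libraries and at 21.3, 17.4 and 13.9 at 1000 nM. AMO1 libraries were at 173, 169 and 176 FPKM and then at 44.4, 14.9 and 30.0. The groups did not overlap in either line. KLF2 rose by 1.2 in XG1 (adjusted p = 0.0213) and fell by 2.62 in AMO1 (adjusted p = 5.59e-06), a difference of 3.82 ± 0.48 (limma), and of 3.03 relative to the median gene.

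LPAR2, a receptor for lysophosphatidic acid, was at 6.34, 6.01 and 9.49 FPKM in XG1 DMSO libraries and at 15.4, 16.3 and 15.4 at 1000 nM. Its AMO1 level was at 7.39, 8.71 and 7.04 FPKM and then at 2.70, 1.16 and 2.48, so libraries that overlapped in DMSO were far apart after treatment. Its difference was 2.55 ± 0.32 (limma adjusted p = 3.49e-05). SLC20A1, a phosphate transporter, was at 60.5, 49.9 and 54.2 FPKM in XG1 DMSO libraries and at 97.3, 102 and 100.2 at 1000 nM. In AMO1 it was at 21.5, 30.0 and 23.7 FPKM and then at 11.0, 5.52 and 9.77, with no overlap between groups in either line and a difference of 2.31 ± 0.28 (limma adjusted p = 2.97e-05).

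PLIN2, which coats lipid droplets, rose from 84.1, 83.2 and 92.8 FPKM to 126, 139.95 and 157 in XG1. In AMO1 it fell from 28.3, 37.6 and 24.8 FPKM to 5.78, 6.94 and 10.5, a difference of 2.54 ± 0.30. OGG1, the glycosylase that removes oxidised guanine from DNA, rose from 9.83, 8.01 and 7.07 FPKM to 16.4, 13.0 and 14.2 in XG1 and fell from 18.2, 21.2 and 16.0 to 6.73, 4.94 and 6.75 in AMO1. Its XG1 and AMO1 levels thus changed places, with a difference of 2.20 ± 0.23. The same direction was called for TRNP1, GIT1, FSCN1 and PXN. TRNP1, a nuclear protein studied in brain development, had a difference of 2.88 ± 0.36, GIT1, a scaffold at adhesion sites, one of 1.96 ± 0.20, FSCN1, the actin bundler fascin, one of 1.89, and PXN, the adhesion protein paxillin, one of 1.89 ± 0.22.

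How far these calls rest on single libraries differed by scale. On the relative scale all 10 kept opposite calls with any 1 of the 18 libraries left out. On the deposited scale CCND3, LPAR2, OGG1 and SLC20A1 did so. The deposited call was lost for KLF2 without XG1 DMSO replicate 1 or XG1 1000 nM replicate 1 or 2, for TRNP1 without XG1 DMSO replicate 2, and for PXN without XG1 DMSO replicate 3 or XG1 1000 nM replicate 1. For PLIN2 it was lost without any of the XG1 DMSO libraries or XG1 1000 nM replicate 2 or 3, and for GIT1 without XG1 DMSO replicate 2 or 3 or any XG1 1000 nM library. The deposited FSCN1 call was lost with 10 of the 18 libraries left out in turn, namely any of the 6 XG1 DMSO or 1000 nM libraries, any of the 3 AMO1 DMSO libraries or AMO1 100 nM replicate 3.

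**Figure D4:**
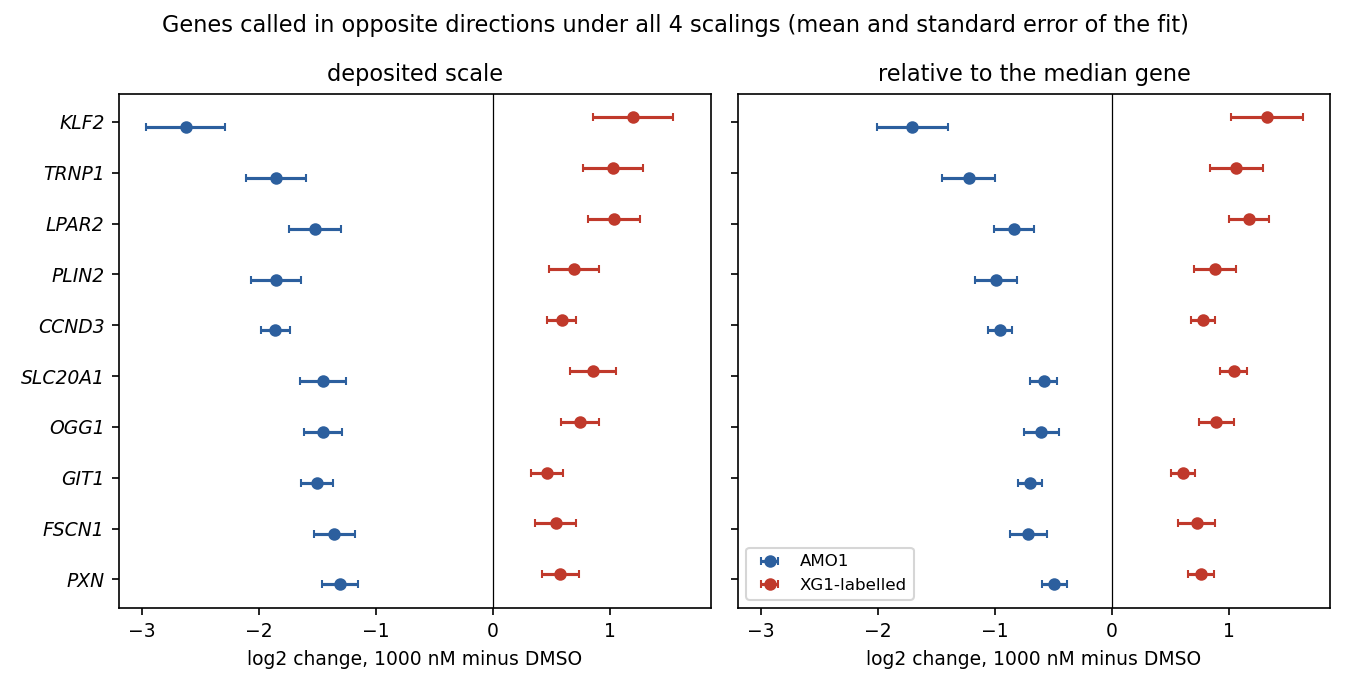
Log2 change at 1000 nM minus DMSO (points) with the standard error of the fit (bars) for the 10 genes called in opposite directions under all 4 scalings, in AMO1 and in XG1-labelled libraries, on the deposited scale (left) and relative to the median gene (right). KLF2 lies farthest out, at 1.2 in XG1 and −2.62 in AMO1 on the left.

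Other genes were opposite on the deposited scale alone. ISG15, a ubiquitin-like interferon-induced protein, rose in XG1 from 32.7, 33.5 and 33.1 FPKM to 109, 97.4 and 64.9. In AMO1 it fell from 56.9, 72.9 and 55.5 FPKM to 34.7, 26.2 and 43.8, a difference of 2.21 ± 0.30 (limma adjusted p = 7.59e-05). Relative to the median gene its AMO1 change was 0.10 and was not called (adjusted p = 0.625). FTL, the ferritin light chain that stores iron, rose in XG1 from 2189, 2145 and 2218 FPKM to 3608, 3354 and 3199.5, and fell in AMO1 from 3877, 4283 and 4848 to 3195, 1927 and 3135. Its AMO1 direction flipped with the scale, to 0.26 relative to the median gene (adjusted p = 0.042, limma). NAGK, a kinase of aminosugar salvage, had a difference of 2.08 ± 0.32 and SP110, a nuclear body protein, one of 1.99 ± 0.32. Both NAGK and SP110 kept the deposited opposite call with any 1 of the 18 libraries left out.

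The genes that responded lower in XG1 were few on the deposited scale. CNFN, cornifelin, a cell envelope protein, was at 6.81, 4.50 and 1.67 FPKM in XG1 DMSO libraries and at 0.148, 0.122 and 0.114 at 1000 nM. The AMO1 libraries stood at 1.59, 7.35 and 3.75 FPKM and then at 6.11, 8.57 and 10.2, where the groups overlapped. The XG1 fall was called (change −2.11, adjusted p = 0.0108), the AMO1 change of 0.96 was not, and the difference was −3.07 ± 0.75 (limma adjusted p = 0.00533). With the median gene as reference CNFN rose in AMO1 by 1.83 and its difference was −3.56, but the opposite call was lost without XG1 DMSO replicate 1 or 2 or AMO1 DMSO replicate 1.

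HBD, the delta globin gene, fell in XG1 from 173, 161 and 194 FPKM to 48.1, 47.7 and 60.1. In AMO1 it was low and overlapping, at 4.28, 9.91 and 1.63 FPKM in DMSO and at 6.32, 4.30 and 10.6 at 1000 nM. Its difference was −2.27 ± 0.54 (limma adjusted p = 0.0048), and −2.91 relative to the median gene, where its opposite call was kept with any 1 of the 18 libraries left out. VPS9D1 rose in AMO1 from 0.744, 0.616 and 0.422 FPKM to 4.15, 3.35 and 4.42, and was not called in XG1 (10.8, 6.86 and 8.45 in DMSO, 9.28, 5.74 and 4.25 at 1000 nM), a difference of −2.06 ± 0.50.

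SCO2, a copper chaperone of cytochrome oxidase and a p53 target, differed by −2.0 ± 0.68 (limma adjusted p = 0.0306), but the AMO1 DMSO libraries read 0.221, 2.12 and 0.111 FPKM. The SCO2 call was lost without XG1 DMSO replicate 2, XG1 1000 nM replicate 2 or 3, AMO1 DMSO replicate 1 or 3, or AMO1 1000 nM replicate 1 or 3. FOS, the immediate-early AP-1 subunit, was at 19.1, 23.3 and 17.1 FPKM in XG1 DMSO libraries and at 24.4, 16.7 and 18.9 at 1000 nM, overlapping groups. AMO1 libraries were at 4.46, 3.27 and 6.49 FPKM and then at 31.5, 8.39 and 18.8, and it rose by 1.70 (adjusted p = 0.00107, limma). The FOS difference of −1.70 ± 0.54 was called at adjusted p = 0.0224, but not without XG1 DMSO replicate 2, AMO1 DMSO replicate 2 or AMO1 1000 nM replicate 1.

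SOCS1, which restrains cytokine signalling through JAK kinases, had a difference of −1.48 ± 0.46 (limma adjusted p = 0.0201), and the call was lost without XG1 1000 nM replicate 3. TNFRSF10D, a decoy receptor for the death ligand TRAIL, was at 0.140, 0.138 and 0.170 FPKM in XG1 DMSO libraries and at 0.150, 0.264 and 0.194 at 1000 nM. In AMO1 it rose from 2.53, 2.76 and 1.84 FPKM to 14.0, 9.24 and 14.4, a difference of −1.92 ± 0.25 (limma adjusted p = 5.82e-05). It was thus a response of AMO1 in a gene barely measured in XG1.

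**Figure D5:**
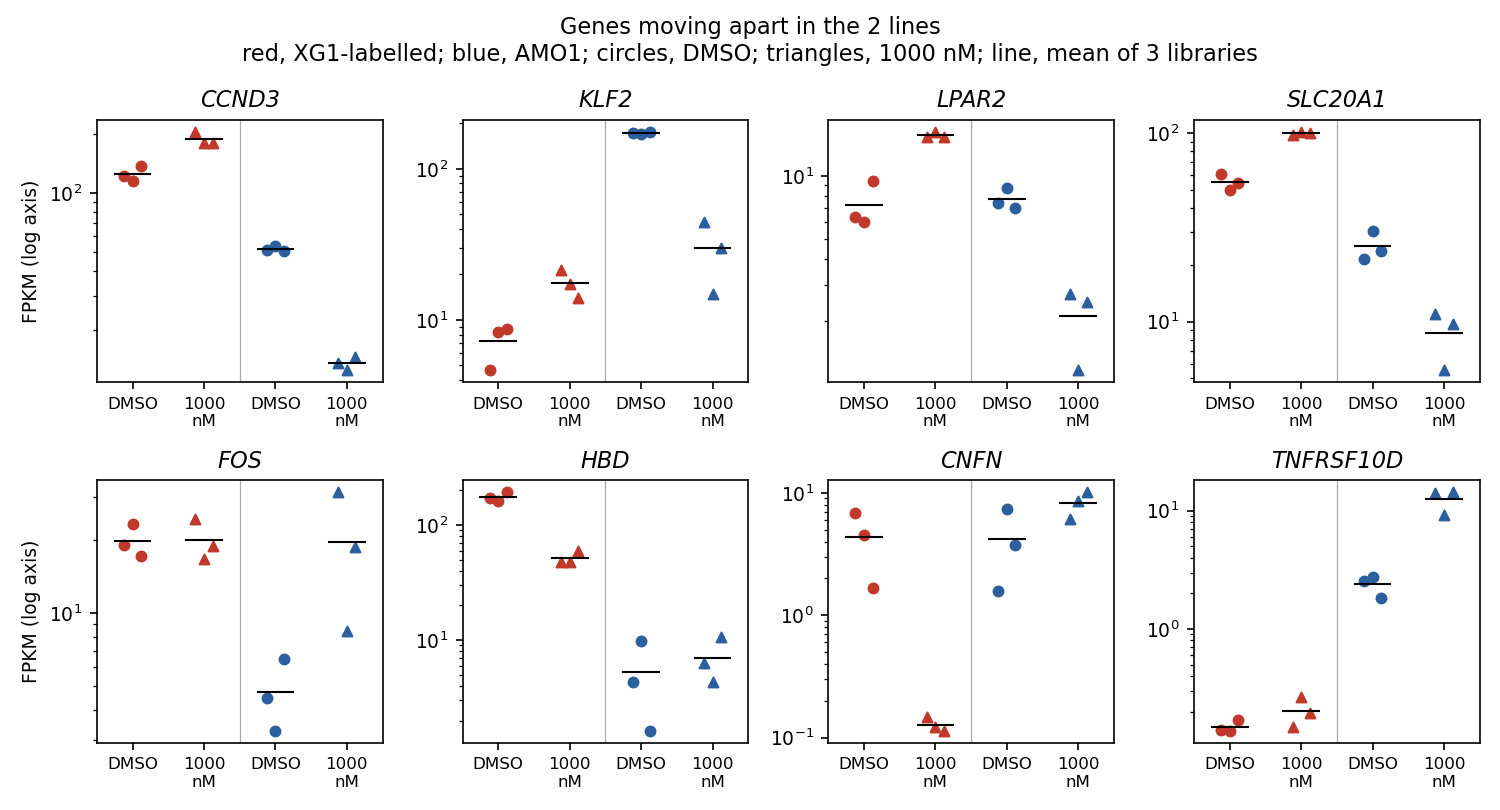
FPKM of 8 genes in each library on a log axis (XG1-labelled in red, AMO1 in blue, DMSO as circles, 1000 nM as triangles, lines at the mean of 3). CCND3, KLF2, LPAR2 and SLC20A1 lie higher after treatment in XG1 and lower in AMO1, FOS and TNFRSF10D rose in AMO1 only, and HBD and CNFN fell in XG1.

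Lists tied to p53 and to NF-kB had more members lower than higher in XG1 relative to the median gene. Of 31 p53 targets, 10 responded higher in XG1 and 1 lower on the deposited scale (4 lower without AMO1 1000 nM replicate 2), with 5 that rose and 2 that fell in XG1, and 7 that rose and 11 that fell in AMO1. Relative to the median gene 3 were higher and 6 lower against 6.81% lower of all genes, with a median difference of −0.35. The lower count was 9 under upper-quartile scaling and 4 when each line's median response was subtracted, where the median difference was −0.05. Of 30 NF-kB targets, 5 were higher and 4 lower on the deposited scale, and on the relative scale 0 were higher and 8 lower. The deposited lower count was 2 with a replicate block and without XG1 DMSO replicate 3, XG1 1000 nM replicate 2 or 3, AMO1 DMSO replicate 1 or 3 or AMO1 1000 nM replicate 1 or 3. The deposited count was 3 higher without XG1 1000 nM replicate 1, AMO1 DMSO replicate 2 or AMO1 1000 nM replicate 2. The relative count was 5 lower without XG1 DMSO replicate 1 or 3, XG1 1000 nM replicate 2 or AMO1 DMSO replicate 2 or 3, and 9 and 5 lower under those 2 other scalings.

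NFKBIA, the inhibitor that holds NF-kB in the cytoplasm, was at 111, 103 and 126 FPKM in XG1 DMSO libraries and at 83.9, 82.0 and 79.3 at 1000 nM. Its AMO1 level was at 164, 185 and 169.6 FPKM and then at 237, 143 and 238, overlapping groups. Its difference was −0.68 (limma adjusted p = 0.0326) on the deposited scale and −1.43 (adjusted p = 2.33e-06) on the relative scale. Against the median gene it fell by 0.27 in XG1 and rose by 1.16 in AMO1, and that opposite call was lost without any 1 of the 6 XG1 DMSO or 1000 nM libraries.

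Many erythroid genes were low in AMO1 and many plasma cell genes lower in XG1, so that 6 of 31 tested erythroid and 19 of 33 tested plasma cell genes reached a mean of 2 FPKM in both lines. Of 31 tested erythroid genes, 3 responded higher in XG1 and 7 lower, and 8 fell in XG1. Of all genes tested 1.5% were lower, and of genes with a mean of at least 2 FPKM in XG1 only 4.57%. In a fit of only genes with that mean in each line, 3 of 6 erythroid genes were higher and 1 lower. For a gene near the floor in AMO1, the difference mainly restates the XG1 change. The lower count among the 31 was 4 without XG1 DMSO replicate 1. KLF1, the erythroid Krüppel-like factor, fell in XG1 from 94.5, 91.6 and 113 FPKM to 32.2, 27.5 and 29.9, a difference of −1.68 ± 0.24 (limma adjusted p = 0.000121). HEMGN, hemogen, fell in XG1 from 23.1, 17.3 and 27.9 FPKM to 4.87, 3.81 and 5.61, a difference of −2.17 ± 0.34. The largest such decreases outside the list were MT1A, a metallothionein that went from 11.9, 11.4 and 12.1 FPKM to 0.130, 0.106 and 0.0955, MRLN, the muscle micropeptide myoregulin, and CXCL8, the chemokine interleukin 8. Their differences were −3.51 ± 0.52, −3.23 ± 0.43 and −2.53 ± 0.44.

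Of the 33 plasma cell genes, 11 responded higher in XG1 and 0 lower, a share near the 32.8% of all genes tested. IRF4, a transcription factor on which myeloma cells depend, differed by 1.32 ± 0.26 (limma adjusted p = 0.00132). Its mean was 0.53 FPKM in XG1 DMSO libraries and 0.20 at 1000 nM, and 77.5 and 24.4 FPKM in AMO1. At such a low level the added 1 understates the XG1 change, so the difference is read from the floor. Relative to the median gene the IRF4 difference was 0.40 to 0.58 with 1 library left out, and was called in 11 of the 18 such fits. Among genes under 2 FPKM in XG1, DHRS2, a mitochondrial reductase, fell in AMO1 from 113, 126 and 122 FPKM to 5.51, 4.09 and 5.49, a difference of 3.97 ± 0.39 (limma adjusted p = 3.95e-06). CIITA, the master regulator of MHC class II genes, differed by 2.04 ± 0.23. Of 23 antigen presentation genes, 13 responded higher in XG1 and 0 lower, against 32.8% higher of all genes tested. Of these 23 genes, 9 were measured in both lines. The higher count was 9 when 0.1 FPKM was added in place of 1, and relative to the median gene 3 were higher and 1 lower. In the other direction, C6orf226 rose in AMO1 from 15.9, 32.7 and 30.2 FPKM to 83.5, 60.5 and 94.0, with a difference of −2.38.

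At 100 nM the same contrast uses the same DMSO libraries, so its values are set beside those at 1000 nM without a test between them. There 687 genes (5.37%) responded higher in XG1 and 110 (0.86%) lower on the deposited scale, and relative to the median gene 803 (6.28%) higher and 417 (3.26%) lower. The CTH difference was 3.17 at 100 nM and 4.06 at 1000 nM, and that of CHAC1 2.95 and 3.38. For RRM2 the values were 2.18 and 3.97, for CDC6 2.03 and 3.43, for CDK1 2.19 and 2.88 and for CCND3 1.49 and 2.45. TUBB3 stood at 2.70 and 2.43, while KLF2 stood at 1.35 (adjusted p = 0.112, limma) and 3.82. XG1 libraries at 100 nM had the lowest rank correlation within a group, 0.817, against at least 0.877 in every other group.

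Some named genes overlap another gene in RefSeq, and the sources used here do not say whether counting used strand. These are CHAF1A with UBXN6, CCNA2 with EXOSC9, FANCI with POLG, RPL15 with NKIRAS1, TPI1 with SPSB2, SP110 with SP140, GIT1 with TP53I13, OGG1 with CAMK1 and TADA3, VPS9D1 with ZNF276, SCO2 with NCAPH2 and TYMP, CDK7 with CCDC125, CCNH with RASA1 and CIITA with DEXI. Reads of such pairs cannot be told apart here.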

How the data were processed

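Each of 18 libraries was a 3' messenger RNA library (QuantSeq) made from total RNA. The submitters' processing notes name HISAT2, hg19 and Cuffnorm, without versions. The authors deposited FPKM for 26249 genes and 92 spike-in RNAs. Summed spike-in FPKM lay between 166717 and 187657 in all libraries, so the deposited FPKM appear rescaled to the spike-ins, which no note describes. Dividing by gene length does not suit 3' libraries. Levels were compared within a gene, except in the summed FPKM of marker lists and of whole libraries. Those sums weight each gene by that division. Read depth is unknown, and precision rests on replicates.

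Values were used as log2(FPKM + 1) and spike-in rows were left out. All 18 libraries (6 groups of 3) were fitted with group means in limma 3.58.1 (R 4.3.3, mean-dependent prior variance, two-sided). Genes needed at least 1 FPKM in at least 3 libraries, which 12792 passed. Tables and plots were made with Python 3.11.15, pandas 2.3.3 and matplotlib 3.10.9. The fit was tested on simulated data for the difference at 1000 nM with 12792 genes. It recovered 0% of changes of 0.5, 22.4% of 1 and 92.4% of 2 on the log2 scale, with 4 false calls among 12592 unchanged genes. Only 67, 67 and 66 genes carried those changes, and noise was drawn separately for each gene, without shifts shared by a library. With so few changed genes the adjusted threshold was stricter than in these data, where 34.3% of genes were called. The rates therefore do not give the power or the false calls of the fit to these data.

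The comparison and the 33 gene lists were chosen with earlier results of these data known, and counts in lists are descriptions. Named genes were, among protein-coding genes, the 8 largest differences of each direction and scale for genes of at least 2 FPKM in both lines, the 6 strongest opposite genes of each direction and scale, the 5 largest of each direction under 2 FPKM in 1 line, up to 3 members of each list with the smallest p, and 10 standing genes (the CDK7 complex, MYC, E2F1, IRF4, MCL1, ABCB1 and others). Not all of these are described, and genes named beyond the rule, such as those opposite under all 4 scalings, were chosen after their values were seen. Gene symbols were matched to RefSeq (GRCh38.p14) for 25089 of 26249 genes, promoters by symbol. Alternatives were other pseudocounts, filters, prior variance, scalings, libraries, a replicate block and leaving out each library. Some genes are not reported here.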

Additional observations from a re-analysis of the deposited data

Results flagged for a closer look

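Genes with called changes of opposite sign in the 2 lines were marked, and the limma test of the difference passed for each. Opposite calls in the same fit make such a pass nearly certain, so it adds no support. On the deposited scale the differences between the lines (XG1 minus AMO1, log2) were 2.43 for TUBB3, 3.82 for KLF2, 2.55 for LPAR2, 2.88 for TRNP1, 1.99 for SP110 and 2.08 for NAGK. On the relative scale they were 3.03 for KLF2, 2.01 for LPAR2, 2.28 for TRNP1, 1.87 for PLIN2, 1.85 for NUP62CL and 1.73 for CCND3. Genes that fell in XG1 and rose in AMO1 relative to the median gene had differences of −3.56 for CNFN, −2.91 for HBD, −1.47 for PRKAR2A, −1.65 for TRANK1, −1.44 for RRAGB and −1.48 for MNS1. Among these last 6, HBD alone kept the opposite call with any 1 of the 18 libraries left out. NUP62CL, a relative of a nuclear pore protein gene, was at 13.9, 19.8 and 19.2 FPKM in XG1 DMSO libraries and at 39.2, 34 and 26.1 at 1000 nM. In AMO1 it was at 1.88, 2.40 and 1.65 FPKM and then at 0.394, 0.203 and 0.488, so the groups did not overlap in either line.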

How the results depend on the processing

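The count of called differences on the deposited scale was 4390 and stayed within 1.5 times of that under every alternative run, from 3227 to 4824 with 1 library left out and 3760 with a replicate block. Its relative counterpart was 2157, from 1613 to 2441 with 1 library left out and 1908 with a replicate block. Without a filter on low values the relative split was 2781 higher and 222 lower. The count of opposite genes on the deposited scale, 103, was 60 without a filter, 62 with the replicate block and 52 to 135 with 1 library left out. It was 57 without XG1 DMSO replicate 2, 52 without XG1 1000 nM replicate 1 and 67 without AMO1 DMSO replicate 2. On the relative scale the count of 121 was 67 without a filter (66 and 1 by direction), 69 with each line fitted on its own 9 libraries, and 76 (without XG1 DMSO replicate 3) to 154 with 1 library left out. Same-numbered libraries did not deviate together, with correlations of −0.053 to 0.037, so the block rests on a shared number only. The cause of these moves was not tested. No difference of a named gene changed sign under any alternative of its scale (deposited only for CDK7, CCNH, MNAT1, CDKN1A, MCL1 and ABCB1). On the relative scale the differences of CDK7, CCNH and MNAT1 did change sign between fits with 1 library left out. They lay at −0.15 to 0.26, −0.05 to 0.24 and −0.07 to 0.39. Those of CDKN1A, MCL1 and ABCB1 were negative on the relative scale and positive on the deposited scale. Read depth could not be judged from FPKM. A change of 1 on the log2 scale was mostly missed in simulation, but with far fewer changed genes than were called in these data.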

Other observations

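HNRNPH2, an RNA-binding protein gene that RefSeq also lists within a readthrough gene with RPL36A, had a difference of 6.79 ± 2.31 (limma adjusted p = 0.0315). It read 0.171, 0.154 and 0.359 FPKM in XG1 DMSO libraries and 91.6, 67.0 and 76.7 at 1000 nM, and in AMO1 81.8, 89.1 and 0.121 FPKM in DMSO and 46.8, 31.1 and 0.0785 at 1000 nM. The AMO1 libraries numbered 3 thus read near 0 in both groups while the others did not, and relative to the median gene the difference of 5.77 was not called (adjusted p = 0.145).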
